A study of Homo sapiens with 24 samples.

Results

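The comparison described here is that of PANC1 cells given SR4 and lonidamine together for 24 h with PANC1 cells given vehicle for 24 h. It was taken by the column names of the count table of PANC1, 3 combination libraries against 3 vehicle libraries, so 6 of the 24 libraries of the series are its members and every gene of the table was eligible. PANC1 is an established human pancreatic ductal adenocarcinoma line with intact SMAD4. The series also holds PANC1 cells given SR4 alone at 5 uM or lonidamine alone at 300 uM, and the same 4 groups in BXPC3, a pancreatic cancer line known for loss of SMAD4, with 3 libraries in each of the 8 groups. The doses used within the combination are not stated separately in the labels, so setting the combination beside each compound assumes equal doses. The vehicle is not named. Both lines are single established lines grown in low-glucose medium with serum, and the labels do not say whether the libraries of a group came from separate cultures, so p-values measure the spread between these libraries, which may be technical.

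SR4 is known by its code name as a mitochondrial uncoupler, an agent that lets protons re-enter the mitochondrial matrix without ATP synthesis. Lonidamine is known as an inhibitor of pyruvate entry into mitochondria, of lactate export by monocarboxylate transporters and of respiratory complex II. Cells short of energy, amino acids or folding capacity are known to slow translation through phosphorylation of eIF2, which favours translation of the transcription factor ATF4 and of its targets in amino acid supply. Misfolded protein in the endoplasmic reticulum (ER) is known to activate ATF6, the kinase PERK and the kinase IRE1, whose product XBP1 drives ER chaperone genes. Glycolysis is the known alternative supply of ATP when respiration is impaired, and the series title names an attack on the energy supply of pancreatic cancer cells as its aim.

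Values are gene counts per 1e6 counts of the library (CPM), with libraries scaled by TMM. Changes are log2 ratios, called at an adjusted p under 0.05 in the quasi-likelihood test of edgeR (Benjamini-Hochberg, 12514 genes). Their standard errors (SE) are approximate, derived from the same test, and too small where a group has few counts. CPM give shares of the counted messenger RNA, and total RNA per cell was not measured. The combination libraries held 10.9 ± 0.663 and the vehicle libraries 9.13 ± 0.360 in units of 1e6 counts (SD, n = 3 each), and 3 counts stand for 0.338 CPM in the shallowest PANC1 library. The first principal component of the 12 PANC1 libraries carried 59.5% of the variance, with the combination at one end and vehicle at the other. All 8 PANC1 markers looked at, among them KRT8, KRT18, SMAD4 and VIM, stood above 5 CPM in both groups, and CDKN2A and CDKN2B, known to be deleted in PANC1, had 0 counts in all 6 libraries. Markers of other cells were low. Of 14 immune markers only CD68 passed 5 CPM, at 211 ± 4.45 CPM with the combination and 123 ± 4.09 CPM with vehicle (SD, n = 3 each), and 7 had 0 counts in both groups. None of 10 endothelial, 14 acinar or 12 endocrine markers passed 5 CPM in either group. Of 11 fibroblast markers 1 passed with the combination and 2 passed with vehicle.

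Promoters of a few members of several gene groups are shown first, because several gene groups described below share short known binding sequences. The members shown were picked by adjusted p from those whose window holds the letters. Other starts of a gene were not searched, so a marked match need not be the site known to act in that gene. The windows run from 250 bases before to 50 bases after the start of the gene in RefSeq on GRCh38.p14, are written along the strand of the gene, and carry the searched letters, on either strand, in capitals. For ATF3 (chr1:212565157-212565456, plus strand) and ASNS (chr7:97872359-97872658, minus strand) the capitals mark TGATGNAA, the core of the C/EBP-ATF response element through which ATF4 is known to act.
ATF3: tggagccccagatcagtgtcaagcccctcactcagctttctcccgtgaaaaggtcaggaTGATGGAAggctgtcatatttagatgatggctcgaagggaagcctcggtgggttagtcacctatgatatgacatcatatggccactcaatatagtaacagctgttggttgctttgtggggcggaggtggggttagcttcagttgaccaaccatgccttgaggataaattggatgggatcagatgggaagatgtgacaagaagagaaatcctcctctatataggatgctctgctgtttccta
ASNS: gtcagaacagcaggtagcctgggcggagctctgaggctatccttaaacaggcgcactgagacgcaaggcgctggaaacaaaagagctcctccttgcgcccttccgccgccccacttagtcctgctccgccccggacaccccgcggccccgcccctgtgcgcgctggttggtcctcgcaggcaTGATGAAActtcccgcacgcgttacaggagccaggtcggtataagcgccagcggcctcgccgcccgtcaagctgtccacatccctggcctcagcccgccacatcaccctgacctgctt
For HSPA5 (chr9:125241294-125241593, minus strand) and HSP90B1 (chr12:103930160-103930459, plus strand) they mark the ER stress response element, CCAAT and CCACG with 9 bases between, which ATF6 is known to bind together with NF-Y. This element was added to the search after the values were seen.
HSPA5: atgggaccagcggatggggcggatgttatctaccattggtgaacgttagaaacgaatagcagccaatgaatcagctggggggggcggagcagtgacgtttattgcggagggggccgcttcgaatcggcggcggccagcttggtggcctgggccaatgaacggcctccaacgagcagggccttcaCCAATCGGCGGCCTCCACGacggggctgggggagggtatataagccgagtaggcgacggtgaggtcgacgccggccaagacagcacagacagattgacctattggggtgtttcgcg
HSP90B1: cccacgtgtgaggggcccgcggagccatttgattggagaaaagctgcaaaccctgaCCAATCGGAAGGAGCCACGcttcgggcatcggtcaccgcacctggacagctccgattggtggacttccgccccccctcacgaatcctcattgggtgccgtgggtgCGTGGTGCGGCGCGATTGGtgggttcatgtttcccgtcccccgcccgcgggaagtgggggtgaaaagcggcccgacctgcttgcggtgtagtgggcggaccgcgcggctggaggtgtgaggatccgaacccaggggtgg
For TOP2A (chr17:40417847-40418146, minus strand) they mark TTTGAA, the CHR element of late cell cycle genes, and for UHRF1 (chr19:4909251-4909550, plus strand) TTTNNCGC, an E2F element of replication genes.
TOP2A: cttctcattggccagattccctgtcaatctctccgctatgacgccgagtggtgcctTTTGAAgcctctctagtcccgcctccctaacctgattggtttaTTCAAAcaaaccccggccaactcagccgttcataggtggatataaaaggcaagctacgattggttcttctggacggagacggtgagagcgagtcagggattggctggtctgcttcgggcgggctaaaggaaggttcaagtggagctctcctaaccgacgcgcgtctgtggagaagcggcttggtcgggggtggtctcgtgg
UHRF1: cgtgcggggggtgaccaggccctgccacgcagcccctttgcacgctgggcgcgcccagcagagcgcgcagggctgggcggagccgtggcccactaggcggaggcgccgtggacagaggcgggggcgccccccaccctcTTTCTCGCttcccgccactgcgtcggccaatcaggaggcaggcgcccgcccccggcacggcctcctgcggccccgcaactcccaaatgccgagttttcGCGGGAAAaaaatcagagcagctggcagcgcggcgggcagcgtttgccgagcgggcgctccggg
For SREBF2 (chr22:41832855-41833154, plus strand) they mark TCACNCCAC, a sterol regulatory element, which was found in the window of 1 of 18 sterol genes.
SREBF2: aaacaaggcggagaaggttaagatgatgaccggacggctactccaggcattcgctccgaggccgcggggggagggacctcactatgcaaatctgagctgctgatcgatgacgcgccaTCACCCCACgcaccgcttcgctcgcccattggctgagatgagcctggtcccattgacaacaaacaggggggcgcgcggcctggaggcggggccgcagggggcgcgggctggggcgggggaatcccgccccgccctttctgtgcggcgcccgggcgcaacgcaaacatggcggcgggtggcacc
The share of members with a match was set beside that of all 27305 RefSeq promoters of the same length and that of the 10164 promoters of genes tested here. TGATGNAA was found in 9 of 34 ATF4 target promoters (26.5%, against 3.67% of all and 1.57% of tested), and the ER stress response element in 6 of 23 promoters of ER chaperone and stress genes (26.1%, against 0.0806% of all and 0.138% of tested). TTTGAA was found in 25 of 34 mitotic promoters (73.5%, against 15.4% and 9.17%) and TTTNNCGC in 22 of 37 replication promoters (59.5%, against 6.90% and 10.7%). CCAAT alone, which is also the first part of the ER stress response element, was found in 27 of 34 mitotic promoters (79.4%, against 35.7% and 36.6%). ACGTG, the core of the hypoxia response element, was found in 10 of 19 hypoxia target promoters (52.6%, against 21.6% and 27.2%), and CACGTG, which contains it, in 2 of 7 promoters of the MondoA list (28.6%, against 7.43% and 10.4%). TCACNCCAC was found in 1.15% of all promoters and 1.08% of those of tested genes. A match describes the letters of the window only.

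The combination changed the level of most genes measured in PANC1, and the ER chaperone HSPA5 made the largest gain. Of 12514 genes tested, from 25168 in the table, 5022 rose (40.1%) and 5121 fell (40.9%), so 81.1% were called in either direction. These shares of all genes are the ones to set beside each count of list members given below. At least 2-fold rises numbered 1756 (14%) and at least 2-fold falls 2062 (16.5%), and at least 4-fold changes 398 and 605. The median change of all genes was -0.02 log2, a value that the scaling holds near 0. The 3 combination libraries did not overlap the 3 vehicle libraries in 10281 genes (82.2%), so lack of overlap is the usual case in these data. With 3 libraries against 3 there are 10 ways to split them, and an exact two-sided permutation test of 1 gene cannot give a p below 0.1.

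**Figure D1:**
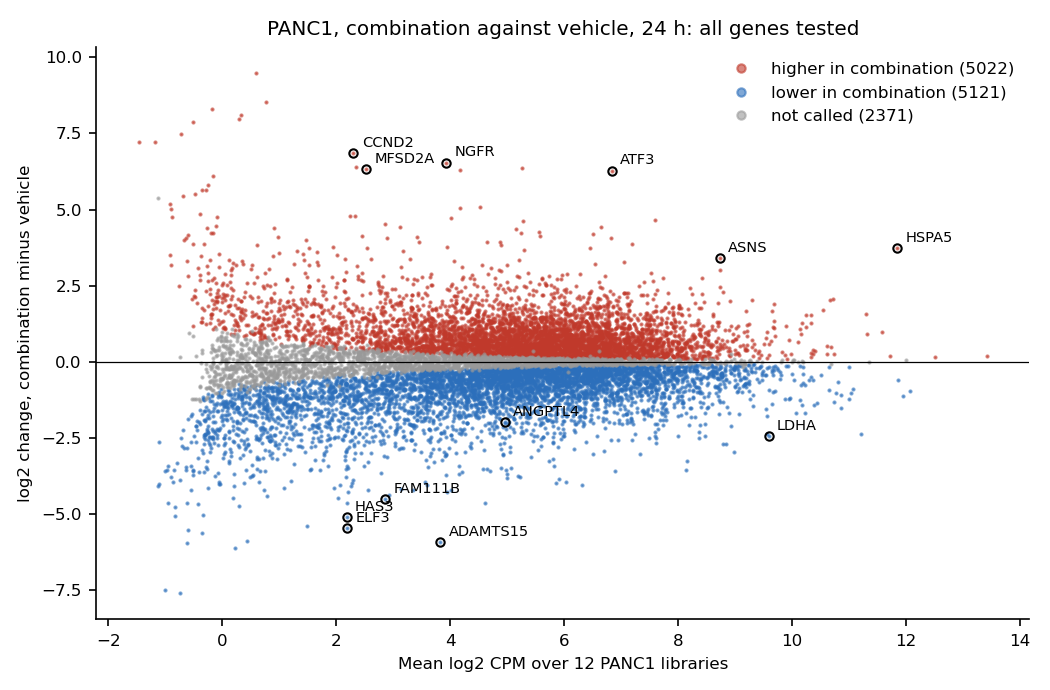
Log2 change, combination over vehicle, of 12514 genes (vertical axis) against their mean log2 CPM over 12 PANC1 libraries (horizontal axis), with called rises, called falls and other genes in separate colours. HSPA5 and ATF3 stand out at high level above the cloud, ADAMTS15, ELF3 and HAS3 far below it, and 5022 rises face 5121 falls.

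HSPA5, the main chaperone of the ER lumen, stood at 10237, 10203 and 10353 CPM in the combination libraries and at 791, 772 and 737 CPM in the vehicle libraries. Its share of counts rose by 3.74 ± 0.032 log2 (adjusted p = 8.76e-34), the largest gain in CPM of any gene. The deposited table places it on chromosome 9, 125234853 to 125241330. ATF3, a stress-induced transcription factor of the ATF family, stood at 616, 618 and 595 CPM with the combination and at 8.92, 6.95 and 7.66 CPM with vehicle, a rise of 6.27 ± 0.059 log2 (adjusted p = 8.10e-33), on chromosome 1, 212565334 to 212620777. In both genes the lowest combination library was far above the highest vehicle library. NGFR, the low-affinity neurotrophin receptor, had 71.8, 74.5 and 71.2 CPM with the combination and 0.743, 0.785 and 0.777 CPM with vehicle, a rise of 6.54 ± 0.21 log2, on chromosome 17, 49495293 to 49515017. MFSD2A, a transporter of lysophosphatidylcholine, had 53.7, 61.8 and 54.0 CPM with the combination and 1.17, 0.673 and 0.222 CPM with vehicle, a rise of 6.32 ± 0.18 log2. Again no libraries overlapped, and for MFSD2A the vehicle level is near the detection limit, so the size of its fold is uncertain.

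CCND2, a D-type cyclin, showed the largest fitted rise of the genes named by the rule, 6.85 ± 0.28 log2, but its 3 vehicle libraries held 4 counts together, against 590 counts with the combination. The size of this rise is therefore more uncertain than its SE. RAB39B, a small GTPase of membrane traffic, rose by 6.35 ± 0.11 log2 to 171 ± 5.15 CPM with the combination, against 2.09 ± 0.597 CPM with vehicle (SD, n = 3 each). Further large rises were those of BEX4, ALDH1L2, a mitochondrial folate enzyme, ARFGEF3, ARG2, the mitochondrial arginase, DDR2, a collagen receptor kinase, and BEX2, between 4.74 and 6.38 log2, with 6 vehicle counts for BEX4. C17orf107 rose by 6.31 ± 0.11 log2, but it overlaps CHRNE on the opposite strand, and reads of a gene and its antisense partner cannot be told apart when the strand setting is not known.

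Among the falls, ADAMTS15, a secreted metalloprotease of the extracellular matrix, had 2.45, 1.08 and 0.934 CPM with the combination and 97.1, 93.7 and 85.9 CPM with vehicle, and fell by 5.92 ± 0.13 log2 (adjusted p = 9.41e-25). ELF3, an epithelial transcription factor, had 0.701, 0.293 and 0.467 CPM with the combination and 23.8, 20.1 and 22.9 CPM with vehicle, and fell by 5.46 ± 0.21 log2. HAS3, which makes hyaluronan, had 0.438, 0.293 and 0.467 CPM with the combination and 13.9, 14.8 and 13.8 CPM with vehicle, and fell by 5.10 ± 0.23 log2. Every combination library of these genes lay below every vehicle library, close to the detection limit for ELF3 and HAS3, so the size of their falls is uncertain. FAM111B, a replication-linked protease, fell by 4.50 ± 0.12 log2 and PXDN, a peroxidase that cross-links basement membrane collagen, by 4.27 ± 0.19 log2. SLC2A12, a sugar transporter, MXRA5, a matrix protein, LFNG, which modifies Notch receptors, GRIN2A, a glutamate receptor subunit, MDGA1 and RIPOR3 fell by 4.22 to 4.64 log2. C20orf166-AS1, which overlaps MIR1-1HG, fell by 4.37 ± 0.14 log2.

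**Figure D2:**
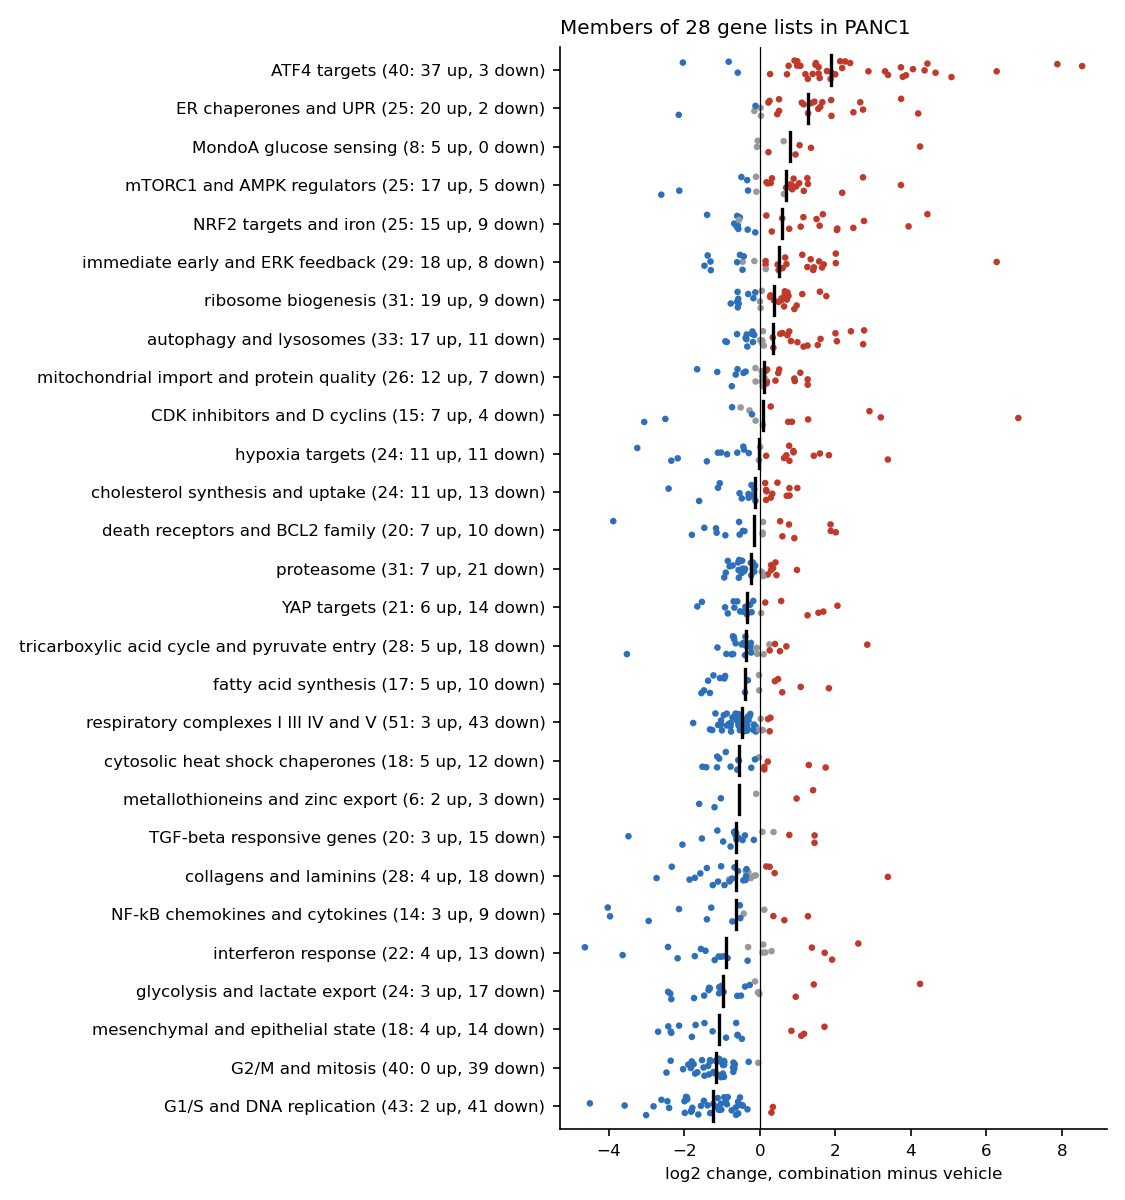
Log2 change, combination over vehicle, of the tested members of 28 gene lists (rows), with each member as a dot coloured by its call and the median of each list as a black bar. The medians of the ATF4 and ER lists lie to the right of 0, at 1.89 and 1.28 log2, and those of the replication, mitosis, glycolysis and respiratory lists to the left.

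ATF4 targets rose almost as a whole. Of 40 tested targets 37 rose and 3 fell, with a median of 1.89 log2. ATF4 itself, the transcription factor at the head of the group, had 594, 604 and 594 CPM with the combination and 162, 159.6 and 146 CPM with vehicle, a rise of 1.94 ± 0.038 log2. DDIT3, which encodes the pro-death factor CHOP, had 271, 279 and 275 CPM with the combination and 15.7, 18.2 and 15.7 CPM with vehicle, a rise of 4.06 ± 0.055 log2. TRIB3, a pseudokinase that restrains ATF4 and AKT, had 498, 487 and 491 CPM with the combination and 18.8, 22.6 and 17.1 CPM with vehicle, a rise of 4.66 ± 0.057 log2. In these genes the groups were far apart, and DDIT3 overlaps MARS, so some reads may be shared. Of the amino acid genes, ASNS, asparagine synthetase, rose by 3.40 ± 0.049 log2 to 806 ± 14.4 CPM with the combination, against 76.5 ± 8.01 CPM with vehicle (SD, n = 3 each). SLC7A11, the cystine importer, rose by 4.44 ± 0.091 log2, CTH, which makes cysteine, by 3.79 ± 0.12 log2 and PHGDH, the first enzyme of serine synthesis, by 2.13 ± 0.071 log2. CHAC1, which degrades glutathione, rose by 4.36 ± 0.091 log2, and SESN2, a sensor that holds back mTORC1, by 3.74 ± 0.061 log2.

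The members that fell were ATF5, SLC7A5 and PSPH. ATF5, a factor translated under stress, had 33.7, 32.8 and 30.2 CPM with the combination and 142, 128 and 128 CPM with vehicle, a change of -2.04 ± 0.064 log2 with no overlap of the groups (adjusted p = 1.88e-21). SLC7A5, the large neutral amino acid transporter, fell by 0.83 ± 0.034 log2 and PSPH, the last enzyme of serine synthesis, by 0.59 ± 0.060 log2. INHBE, an activin subunit, had 147 counts over the combination libraries and 0 over the vehicle libraries, and FGF21, a stress hormone, 93 over the combination and 0 over the vehicle libraries, so no fold is given for either. Both stay above the median of the list when vehicle is set to 3 counts. With each compound alone, against the same vehicle libraries, the median of the list was 2.08 log2 with SR4 and 2.19 log2 with lonidamine. GDF15, a stress cytokine, stood lower with both compounds than with either, at 66.7 ± 4.02 CPM with the combination, 253 ± 12.7 CPM with SR4, 219.9 ± 7.67 CPM with lonidamine and 28.8 ± 1.54 CPM with vehicle (SD, n = 3 each).

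ER chaperone and stress genes rose, and most stood higher with the combination than with either compound. Of 25 tested members 20 rose and 2 fell, with a median of 1.28 log2, beside medians of 0.13 log2 with SR4 and 0.12 log2 with lonidamine. Against SR4 alone 23 of 25 were higher with the combination (33.2% of all genes) and against lonidamine alone 22 (37.1% of all genes). HERPUD1, a membrane protein of ER-associated degradation, had 357, 361 and 358 CPM with the combination and 21.5, 19.6 and 17.4 CPM with vehicle, a rise of 4.20 ± 0.062 log2. HSP90B1, the ER form of HSP90, had 2655, 2675 and 2668 CPM with the combination and 918, 908 and 907 CPM with vehicle, a rise of 1.55 ± 0.031 log2. No library of the combination overlapped one of vehicle in either. The sensors of the unfolded protein response rose, ERN1 (IRE1) by 2.73 ± 0.075 log2, ATF6 by 2.66 ± 0.043 log2 and EIF2AK3 (PERK) by 1.89 ± 0.062 log2. XBP1 rose by 1.90 ± 0.051 log2 and DNAJB9, a co-chaperone of HSPA5, by 2.48 ± 0.063 log2.

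The chaperones of the list were uneven. HYOU1 rose by 1.11 ± 0.033 log2, DNAJB11 by 1.16 ± 0.037 log2 and MANF by 1.28 ± 0.065 log2, while CANX, a lectin chaperone, rose by 0.51 ± 0.030 log2 and CALR by 0.26 ± 0.034 log2. The disulphide isomerases PDIA4 and PDIA6 changed by 0.03 ± 0.035 and 0.02 ± 0.039 log2 and were not called, and CRELD2 changed by -0.15 ± 0.076 log2 (adjusted p = 0.0773). PDIA3 fell by 0.12 ± 0.034 log2 and WFS1, an ER calcium regulator, by 2.15 ± 0.082 log2. HSPA5 itself stood at 6838 ± 44.1 CPM with SR4 and 3404 ± 99.2 CPM with lonidamine (SD, n = 3 each), and its combination level was above both, by 0.59 ± 0.028 log2 (adjusted p = 2.12e-16) and 1.59 ± 0.029 log2 (adjusted p = 1.39e-25).

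**Figure D3:**
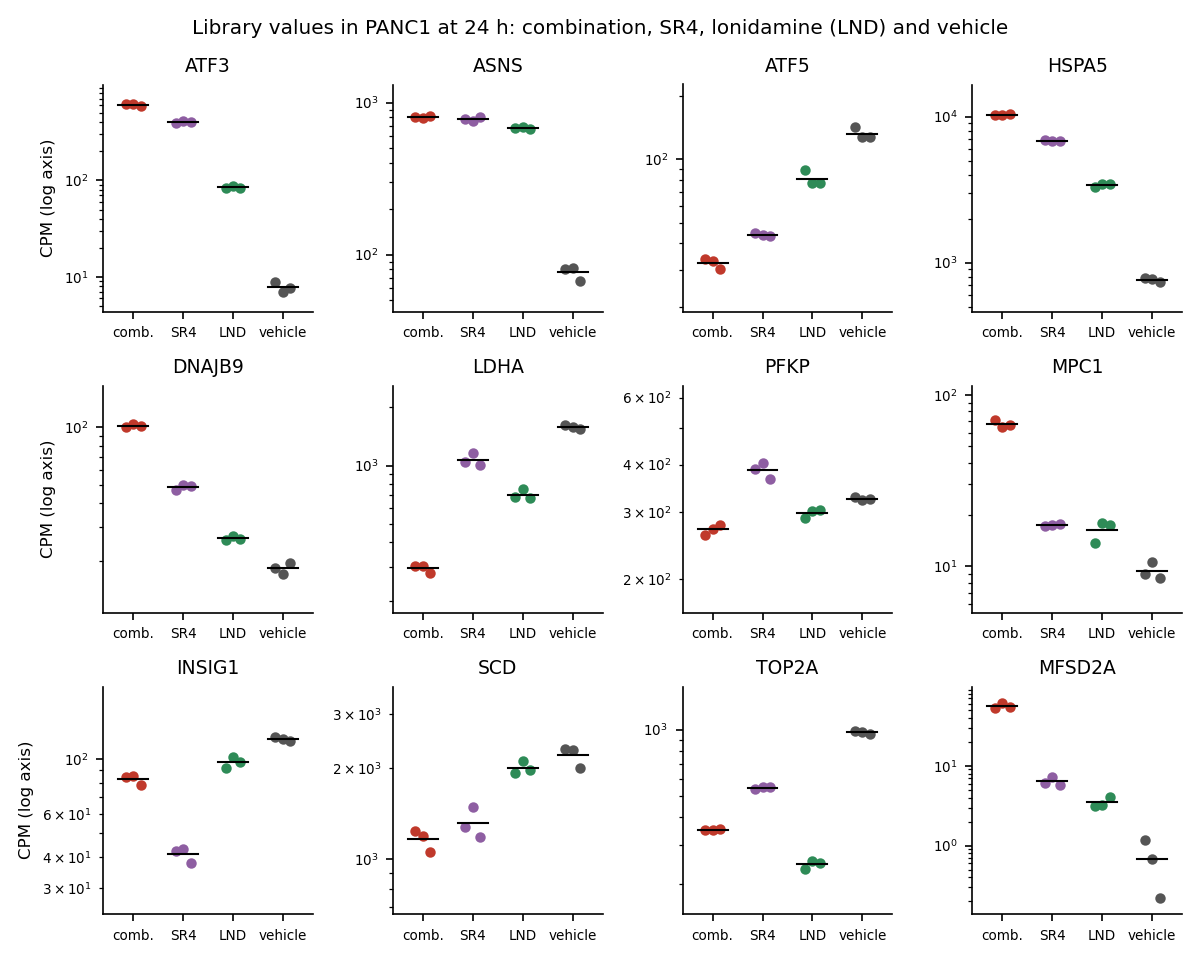
CPM on a log axis of 12 genes in each PANC1 library (points), in the order combination, SR4, lonidamine, vehicle, with the mean of each group as a bar. ATF3 and ASNS are raised in all treated groups, HSPA5 and MPC1 stand highest with the combination, and LDHA lowest with it.

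Genes of glycolysis mostly fell, while HK2, a hexokinase, and SLC2A1, a glucose transporter, rose. Of 24 tested members 17 fell and 3 rose, with a median of -0.98 log2, beside 0.05 with SR4 alone and -0.34 with lonidamine alone. LDHA, which turns pyruvate into lactate, had 303, 301 and 276 CPM with the combination and 1621, 1575 and 1549 CPM with vehicle, a change of -2.43 ± 0.049 log2 (adjusted p = 9.43e-26). PGAM1, the phosphoglycerate mutase, had 146, 141 and 143 CPM with the combination and 479, 481 and 479 CPM with vehicle, and fell by 1.74 ± 0.041 log2. SLC16A3, the lactate exporter MCT4, had 66.4, 73.5 and 65.7 CPM with the combination and 346, 361 and 358 CPM with vehicle, and fell by 2.37 ± 0.049 log2. None of these groups overlapped, and the members of the payoff phase GAPDH, PGK1, ENO1 and PKM fell by 1.02 to 1.34 log2. Lower than SR4 alone were 22 of the 24 (33.4% of all genes), and lower than lonidamine alone 18 (37.5% of all genes). The members that rose were HK2, which phosphorylates glucose, SLC2A1, the glucose transporter GLUT1, by 1.43 ± 0.062 log2, and PFKFB2, which makes an activator of glycolysis, by 0.95 ± 0.064 log2. HK2 had 119, 112 and 117 CPM with the combination and 7.22, 5.83 and 5.22 CPM with vehicle, a rise of 4.25 ± 0.086 log2 with no overlap.

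Mitochondrial genes mostly fell, and MPC1 rose. Of 28 tested genes of pyruvate entry and the tricarboxylic acid cycle 18 fell and 5 rose, with a median of -0.38 log2. MPC1, a subunit of the mitochondrial pyruvate carrier that lonidamine is known to block, had 70.8, 65.1 and 67.0 CPM with the combination and 9.02, 10.6 and 8.55 CPM with vehicle, a rise of 2.85 ± 0.094 log2 (adjusted p = 7.01e-21). Its partner MPC2 fell by 0.48 ± 0.095 log2. PDK3, a kinase that shuts pyruvate dehydrogenase, fell by 3.52 ± 0.42 log2, and its relative PDK1 rose by 0.70 ± 0.070 log2. The size of the PDK3 fall is uncertain, since it rests on 9 counts over the combination libraries against 91 with vehicle. OGDH and IDH2, enzymes of the cycle, fell by 0.89 ± 0.041 and 1.12 ± 0.063 log2, and SDHA, a subunit of complex II, by 0.39 ± 0.050 log2. Of 51 nuclear genes of respiratory complexes I, III, IV and V, 43 fell and 3 rose, with a median of -0.48 log2. ATP5G3, a subunit of the ATP synthase rotor, had 38.4, 39.5 and 39.2 CPM with the combination and 129.7, 131 and 138 CPM with vehicle, and fell by 1.77 ± 0.057 log2 with no overlap. With all genes in 5 bins of transcript length, the medians ran from -0.16 log2 in the shortest bin to 0.096 log2 in the longest, and the part of length in the fall of the respiratory list was not tested.

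Of 26 genes of mitochondrial import and protein quality 12 rose and 7 fell, with a median of 0.10 log2, so the share that rose was near that of all genes (40.1%). The matrix chaperone HSPA9 rose by 1.27 ± 0.031 log2 and the matrix protease LONP1 by 1.27 ± 0.044 log2. The folding pair HSPD1 and HSPE1 fell by 0.59 ± 0.031 and 1.66 ± 0.077 log2, and TIMM17A, a subunit of the inner membrane translocase, by 1.13 ± 0.048 log2.

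Of 24 tested genes of cholesterol synthesis and uptake 11 rose and 13 fell, beside 40.1% and 40.9% of all genes, with a median of -0.13 log2, against -1.10 with SR4 alone and -0.17 with lonidamine alone. SREBF2, the factor that drives the pathway, rose by 0.78 ± 0.042 log2 to 233 ± 3.84 CPM with the combination, against 135 ± 5.06 CPM with vehicle (SD, n = 3 each), and MVK, an early kinase of the pathway, rose by 0.99 ± 0.070 log2. EBP, a late isomerase of the pathway, had 34.3, 35.6 and 28.4 CPM with the combination and 73.2, 67.8 and 70.7 CPM with vehicle, a change of -1.11 ± 0.072 log2 with no overlap. INSIG1, a sterol-sensing brake on the pathway, fell by 0.54 ± 0.051 log2 and HMGCS1 by 0.15 ± 0.045 log2. Against SR4 alone 22 of the 24 were higher with the combination (33.2% of all genes) and 1 lower, and against lonidamine alone 11 were higher (37.1% of all genes) and 6 lower. Of 17 tested genes of fatty acid synthesis 10 fell and 5 rose, beside 40.9% and 40.1% of all genes, with a median of -0.39 log2. ACLY, ACACA and FASN, which carry citrate to palmitate, fell by 1.32 ± 0.041, 1.06 ± 0.047 and 0.94 ± 0.038 log2, SCD, the stearoyl-CoA desaturase, by 0.92 ± 0.062 log2 and SREBF1, their regulator, by 1.23 ± 0.085 log2.

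Cell cycle genes fell in both phases looked at. Of 43 tested genes that act at G1/S or in DNA replication, 41 fell and 2 rose, with a median of -1.23 log2, and of 40 genes of G2/M and mitosis 39 fell and 0 rose, with a median of -1.15 log2. In bulk RNA fewer cycling cells and less of these RNAs per cell cannot be told apart. RRM2, a subunit of ribonucleotide reductase, had 74.6, 68.5 and 72.4 CPM with the combination and 581, 576 and 585 CPM with vehicle, a change of -3.01 ± 0.048 log2 (adjusted p = 1.20e-27). UHRF1, which keeps DNA methylation through replication, had 7.98, 9.48 and 8.13 CPM with the combination and 101, 99.0 and 106 CPM with vehicle, a change of -3.58 ± 0.082 log2. TOP2A, the topoisomerase of dividing cells, had 351, 349.9 and 354 CPM with the combination and 982, 978 and 958 CPM with vehicle, a change of -1.47 ± 0.035 log2. The groups did not overlap in these genes, and KIF20A, a mitotic kinesin, and FOXM1, a factor of mitotic genes, fell by 2.36 ± 0.055 and 1.80 ± 0.046 log2. TYMS, thymidylate synthase, fell by 1.998 ± 0.048 log2, and it overlaps ENOSF1 on the opposite strand. CDC25C was the mitotic gene not called, at -0.04 ± 0.090 log2 (adjusted p = 0.662), and ORC6 and RFC4 were the replication genes that rose, by 0.35 ± 0.076 and 0.31 ± 0.056 log2.

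The D cyclins moved apart. CCND1, a D cyclin that activates CDK4 and CDK6, had 79.8, 70.8 and 76.0 CPM with the combination and 435, 429.9 and 422 CPM with vehicle, a change of -2.50 ± 0.044 log2 with no overlap, while CCND2 rose. Of 15 tested D cyclins, CDK inhibitors and related brakes 7 rose and 4 fell, a share of rises near the 40.1% of all genes. GADD45A, a stress-induced brake on the cycle, rose by 3.21 ± 0.061 log2 and BTG1, an antiproliferative factor, by 2.90 ± 0.045 log2, while CDKN2C, an inhibitor of CDK4 and CDK6, fell by 3.06 ± 0.091 log2. CDKN1A, the CDK inhibitor p21, had 45.1, 44.8 and 43.0 CPM with the combination and 48.9, 49.0 and 45.8 CPM with vehicle, a change of -0.11 ± 0.059 log2 that was not called (adjusted p = 0.0830).

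Among antioxidant and iron genes of the NRF2 group more rose than fell. Of 25 tested members 15 rose and 9 fell, beside 40.1% and 40.9% of all genes, with a median of 0.59 log2. HMOX1, heme oxygenase, had 562, 579 and 549.5 CPM with the combination and 86.2, 83.1 and 80.2 CPM with vehicle, a rise of 2.76 ± 0.044 log2. SRXN1, which repairs peroxiredoxins, rose by 2.48 ± 0.044 log2, GCLC and GCLM, which start glutathione synthesis, by 1.67 ± 0.064 and 1.503 ± 0.043 log2, and OSGIN1 by 3.94 ± 0.17 log2. The ferritin subunits FTH1 and FTL rose by 1.58 ± 0.032 and 2.05 ± 0.044 log2, with the caution that both have many near-identical pseudogenes. PGD, TKT and TALDO1, of the pentose phosphate pathway, fell by 0.32 to 0.68 log2, and NQO1, a classical target, was at 0.17 ± 0.048 log2 (adjusted p = 0.00180).

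Among 24 tested hypoxia targets 11 rose and 11 fell, near the 40.1% and 40.9% of all genes, with a median of -0.01 log2, against -0.02 log2 for all genes. The median was 0.91 log2 with SR4 alone and 0.26 log2 with lonidamine alone. Against SR4 alone 22 of the 24 were lower with the combination (33.4% of all genes) and 2 higher, and against lonidamine alone 14 were lower (37.5% of all genes) and 8 higher. VEGFA, the angiogenic growth factor, had 173, 179 and 187 CPM with the combination and 57.7, 66.9 and 53.8 CPM with vehicle, a rise of 1.59 ± 0.064 log2. LOXL2, a collagen cross-linking oxidase, had 68.9, 63.3 and 61.7 CPM with the combination and 171, 172 and 171 CPM with vehicle, a change of -1.40 ± 0.046 log2. Its relative LOX rose by 3.39 ± 0.22 log2, whereas EGLN3, an oxygen-sensing hydroxylase, fell by 3.25 ± 0.66 log2. The size of the EGLN3 fall is uncertain, since it rests on 4 counts over the combination libraries against 35 with vehicle. NDRG1 fell by 0.29 ± 0.11 log2 (adjusted p = 0.0133). That call is lost without the second vehicle library (adjusted p = 0.0530) or the third combination library (adjusted p = 0.0657). Of 8 genes of the glucose sensor MondoA 5 rose and 0 fell, among them HK2, ARRDC3 by 0.94 ± 0.060 log2, ARRDC4 by 1.05 ± 0.20 log2, and TXNIP, a brake on glucose uptake, by 1.36 ± 0.25 log2 from 46 vehicle counts.

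Of 33 tested genes of autophagy and lysosomes 17 rose and 11 fell, beside 40.1% and 40.9% of all genes. ULK1, the kinase that starts autophagy, rose by 2.76 ± 0.048 log2, MAP1LC3B, a protein of the autophagosome membrane, by 2.41 ± 0.040 log2, GABARAPL1, its relative, by 2.74 ± 0.096 log2, and the cargo receptors SQSTM1 and NBR1 by 2.04 ± 0.035 and 1.53 ± 0.041 log2. The cathepsins CTSA, CTSB and CTSD fell by 0.88 ± 0.047, 0.91 ± 0.043 and 0.33 ± 0.040 log2, and CTSL rose by 0.82 ± 0.064 log2. Of 25 regulators of mTORC1 and AMPK 17 rose and 5 fell, with a median of 0.70 log2. PRKAB2, a subunit of AMPK, rose by 2.73 ± 0.064 log2 and DDIT4, a stress-induced brake on mTORC1, by 2.18 ± 0.055 log2, while DEPTOR, which binds mTOR, fell by 2.14 ± 0.30 log2.

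Cytosolic chaperones mostly fell. Of 18 tested heat shock genes 12 fell and 5 rose, with a median of -0.56 log2. HSPA8, the constitutive HSP70, had 1085, 1064 and 1055 CPM with the combination and 3156, 2982 and 3063 CPM with vehicle, a change of -1.52 ± 0.036 log2 with no overlap. HSP90AA1 and HSP90AB1 fell by 1.42 ± 0.037 and 0.90 ± 0.033 log2, and the near-identical pair HSPA1A and HSPA1B by 1.08 ± 0.064 and 0.60 ± 0.076 log2. DNAJB4 and HSPB8 rose by 1.74 ± 0.072 and 1.30 ± 0.20 log2. Of 31 proteasome subunits 21 fell and 7 rose, with a median of -0.24 log2. PSMC4, an ATPase of the regulatory particle, had 4669.7, 4778 and 4751 CPM with the combination and 2404, 2374 and 2402 CPM with vehicle, and rose by 0.98 ± 0.030 log2 with no overlap, the largest rise of the list.

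Of 31 genes of ribosome biogenesis 19 rose and 9 fell, with a median of 0.37 log2. RRP12, a factor of ribosome export, rose by 1.76 ± 0.039 log2, POLR1B, a subunit of RNA polymerase I, by 1.59 ± 0.046 log2, and MYC, which drives the group, by 1.12 ± 0.042 log2. NCL, the nucleolar protein nucleolin, fell by 0.77 ± 0.032 log2. Of 6 tested metallothionein and zinc genes 2 rose and 3 fell, beside 40.1% and 40.9% of all genes. MT2A, a metal-binding protein, fell by 1.03 ± 0.060 log2, MT1X rose by 1.41 ± 0.15 log2 and MT1E fell by 1.20 ± 0.098 log2, with the caution that these paralogs share sequence.

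Epithelial keratins and matrix genes fell. Of 18 tested genes of the mesenchymal and epithelial lists 14 fell and 4 rose, with a median of -1.07 log2. KRT8, a keratin of simple epithelia, had 366, 381 and 366 CPM with the combination and 1952, 1866 and 1897 CPM with vehicle, a change of -2.36 ± 0.046 log2. KRT19, a ductal keratin, had 132, 137 and 123 CPM with the combination and 722, 668 and 714 CPM with vehicle, a change of -2.43 ± 0.055 log2. CDH1, the epithelial cadherin, fell by 2.14 ± 0.15 log2, and the mesenchymal genes VIM and MMP2, a matrix protease, fell by 0.59 ± 0.032 and 2.35 ± 0.068 log2. SPARC, a matrix protein, fell by 2.697 ± 0.18 log2. Both kinds of gene thus moved down, whereas ZEB1, a factor of the mesenchymal state, and ESRP1, a splicing factor of the epithelial state, rose by 1.10 ± 0.047 and 1.71 ± 0.32 log2. ESRP1 was low in both groups, with 94 counts over the combination libraries and 24 over the vehicle libraries. Keratins have many pseudogenes, so their counts are uncertain.

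Of 28 tested collagens, laminins and their enzymes 18 fell and 4 rose. PLOD2, which hydroxylates collagen lysines, had 72.4, 71.2 and 76.1 CPM with the combination and 275, 266 and 258 CPM with vehicle, a change of -1.86 ± 0.045 log2 with no overlap. COL1A1 and COL5A1, fibrillar collagens, fell by 2.33 ± 0.071 and 1.72 ± 0.069 log2. COL1A1 is also a fibroblast marker, and 6 of the 11 markers of that list had 0 counts in both groups. The rises of this list numbered 2 without the first vehicle library, without the third combination library and with the test of DESeq2. Of 20 tested TGF-beta responsive genes 15 fell and 3 rose. SMAD3, which carries the signal, fell by 2.05 ± 0.038 log2, SMAD4, its partner, rose by 1.45 ± 0.055 log2, and TGFB2, a ligand, fell by 1.53 ± 0.077 log2. Of 21 YAP targets 14 fell and 6 rose, beside 40.9% and 40.1% of all genes. The rises included CTGF by 1.68 ± 0.046 log2, CYR61 by 1.26 ± 0.038 log2 and ANKRD1 by 2.06 ± 0.20 log2, against the direction of most of the list. Its median was -0.34 log2 with the combination and 0.56 log2 with SR4 alone. Against SR4 alone 15 of the 21 were lower with the combination (33.4% of all genes) and 0 higher.

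Cytokine and interferon genes mostly fell. Of 14 tested NF-kB chemokine and cytokine genes 9 fell and 3 rose, beside 40.9% and 40.1% of all genes. CSF1, a growth factor of macrophages, had 9.99, 9.58 and 12.2 CPM with the combination and 160.3, 169 and 169 CPM with vehicle, a change of -3.97 ± 0.075 log2, and TNFAIP2 fell by 4.03 ± 0.068 log2. Of 22 tested interferon response genes 13 fell and 4 rose, beside 40.9% and 40.1% of all genes, with a median of -0.90 log2. OAS3, a sensor of double-stranded RNA, fell by 2.43 ± 0.083 log2 and IFIT1, which binds viral RNA, by 3.64 ± 0.18 log2, while IRF7 and STAT2, which transmit interferon signals, rose by 1.91 ± 0.094 and 1.72 ± 0.074 log2. With no filter on low counts 7 interferon genes rose.

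Of 29 tested immediate early and ERK feedback genes 18 rose and 8 fell, beside 40.1% and 40.9% of all genes. DUSP5 and ETV5, feedback genes of ERK signalling, rose by 2.01 ± 0.048 and 1.69 ± 0.040 log2, and FOSL2 by 1.43 ± 0.049 log2. EGR1 and FOS, the classical serum-induced factors, fell by 1.30 ± 0.12 and 1.47 ± 0.34 log2. Of 20 tested death receptors and BCL2 relatives 10 fell and 7 rose, shares near those of all genes. TNFRSF10B, the death receptor DR5 and a known CHOP target, had 168, 169 and 169 CPM with the combination and 46.9, 46.3 and 44.6 CPM with vehicle, a rise of 1.87 ± 0.046 log2 with no overlap. PMAIP1 (NOXA) and MCL1, an opposing pair of the family, rose by 1.88 ± 0.13 and 0.77 ± 0.038 log2. BMF and BID, which promote death, fell by 3.88 ± 0.20 and 1.47 ± 0.079 log2.

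The next comparison asks where PANC1 cells given both compounds differ from PANC1 cells given SR4 or lonidamine alone. The combination libraries differed from SR4 libraries in 66.5% of genes, 4150 higher and 4174 lower, and from lonidamine libraries in 74.6%, 4642 higher and 4696 lower. It was above both compounds in 3002 genes (24%) and below both in 2708 (21.6%). MFSD2A led those above, at 56.5 ± 4.57 CPM with the combination, 6.403 ± 0.828 CPM with SR4 and 3.50 ± 0.536 CPM with lonidamine (SD, n = 3 each), a difference of 3.14 ± 0.12 log2 from SR4 and 4.002 ± 0.13 log2 from lonidamine. PPM1K, the phosphatase that activates the breakdown of branched-chain amino acids, stood at 42.4 ± 4.10 CPM with the combination, 8.80 ± 1.30 CPM with SR4 and 4.85 ± 0.341 CPM with lonidamine (SD, n = 3 each). ARFGEF3, C17orf107, TMEM198 and MPC1 followed. MPC1 stood 1.96 ± 0.083 log2 above SR4 and 2.05 ± 0.081 log2 above lonidamine.

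ANGPTL4, a secreted inhibitor of lipoprotein lipase, led the genes below both. It had 7.80, 8.02 and 6.91 CPM in the combination libraries, 60.4, 78.0 and 58.6 CPM in the SR4 libraries, 58.0, 68.6 and 57.1 CPM in the lonidamine libraries and 29.2, 32.2 and 27.5 CPM in the vehicle libraries. Each compound alone was thus above vehicle, by 1.15 ± 0.095 and 1.05 ± 0.094 log2, and the combination below it, with a change of -1.97 ± 0.14 log2 (adjusted p = 2.03e-13). The difference of the combination was -3.11 ± 0.12 log2 from SR4 and -3.01 ± 0.12 log2 from lonidamine. No combination library overlapped a library of any other group. CSF1, SEMA4B, CPA4, a carboxypeptidase, HAS3 and RIPOR3 were the next genes below both compounds.

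**Figure D4:**
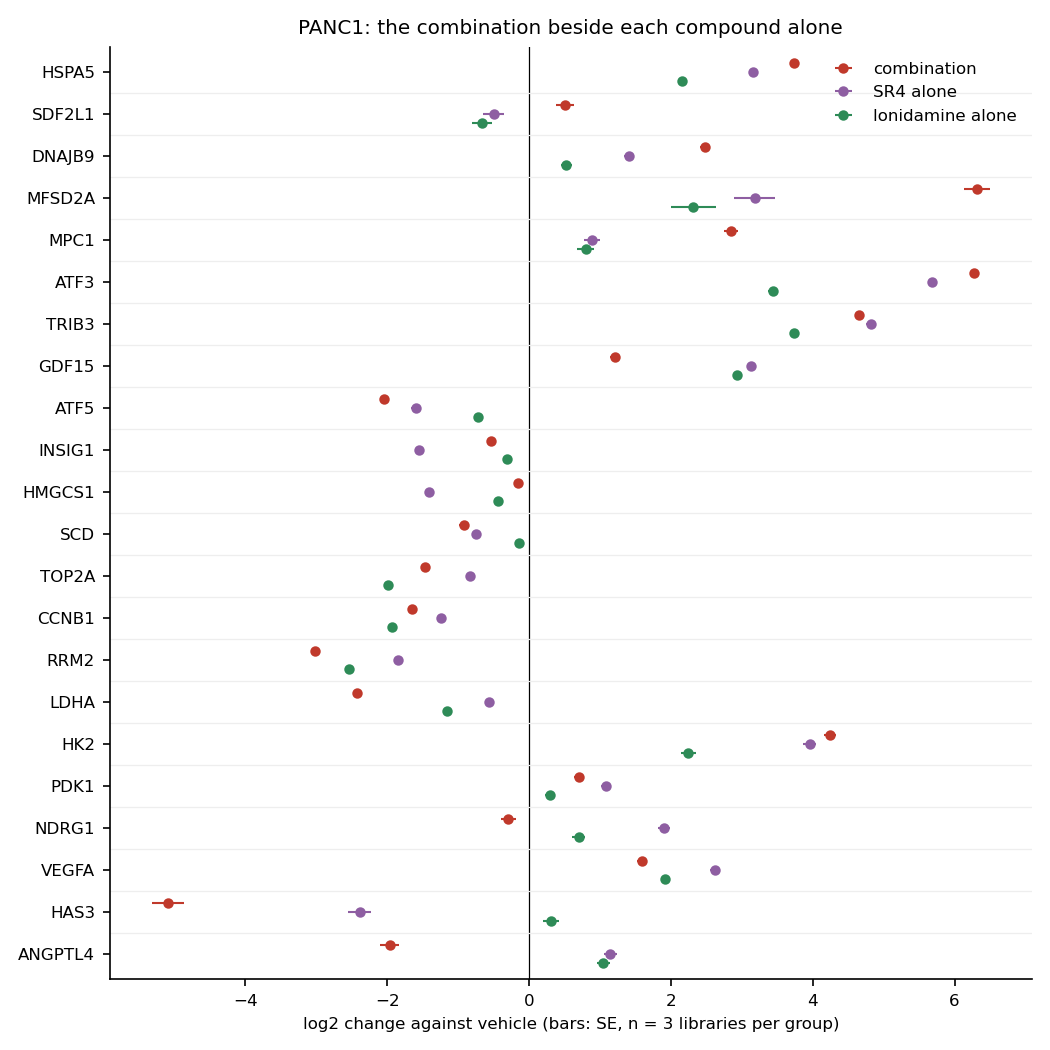
Log2 change over vehicle, with SE bars, of 22 genes (rows) in PANC1 for the combination, SR4 alone and lonidamine alone (colours). Of the 3 treatments the combination lies farthest right for HSPA5 and MPC1 and farthest left for LDHA, SR4 alone lies farthest left for INSIG1 and HMGCS1, and ANGPTL4 lies left of 0 with the combination, at -1.97 log2, and right of it with each compound.

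The SR4, lonidamine and combination changes share their vehicle libraries, so the test used was that of the combination's change minus the sum of both single changes on the log2 scale. Against vehicle, SR4 alone changed 71.7% of genes (35% higher and 36.7% lower) and lonidamine alone 69.2% (35% higher and 34.2% lower). The departure was called in 60.9% of genes, positive in 3858 (30.8%) and negative in 3760 (30%). ATF4 targets departed downward in 38 of 40 cases. ATF4 itself changed by 1.94 ± 0.038 log2 with the combination, 1.84 ± 0.039 log2 with SR4 and 1.89 ± 0.038 log2 with lonidamine, a departure of -1.79 ± 0.052 log2 (adjusted p = 4.76e-21). Its level with the combination was 0.05 ± 0.035 log2 above lonidamine, which was not called (adjusted p = 0.183). GDF15, HKDC1, a hexokinase relative, CCND2, THBD, which encodes thrombomodulin, LAMP3 and SPNS2 departed most in the negative direction, between -5.06 log2 for HKDC1 and -4.64 log2 for SPNS2, and the value of CCND2 rests on 4 vehicle counts. HKDC1 stood at 11.9 ± 1.82 CPM with the combination, 28.9 ± 1.07 CPM with SR4, 9.71 ± 1.68 CPM with lonidamine and 0.698 ± 0.145 CPM with vehicle (SD, n = 3 each).

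All 43 replication genes and all 40 G2/M genes departed upward (30.8% of all genes), so their change with both compounds lay above the sum of the changes with each. E2F2, a factor of S-phase genes, fell by 2.45 ± 0.15 log2 with the combination and by 2.73 ± 0.16 log2 with SR4 and 2.83 ± 0.16 log2 with lonidamine, a departure of 3.11 ± 0.28 log2. FEN1, a nuclease of DNA replication that overlaps FADS genes, departed by 2.82 ± 0.11 log2 and FAM111B by 3.06 ± 0.24 log2. Both lists had medians between those of the compounds. Of 40 G2/M genes 34 were lower than with SR4 alone (33.4% of all genes) and 34 higher than with lonidamine alone (37.1% of all genes). Their medians were -1.15 with the combination, -0.87 with SR4 and -1.79 log2 with lonidamine. Of 43 replication genes 22 were lower and 10 higher than with SR4 alone, and 28 higher and 7 lower than with lonidamine alone. Their medians were -1.23 with the combination, -1.05 with SR4 and -1.88 log2 with lonidamine. EGR1 departed most in the upward direction, by 3.78 ± 0.22 log2, at 9.21 ± 0.871 CPM with the combination, 2.58 ± 0.402 CPM with SR4, 5.85 ± 0.452 CPM with lonidamine and 22.6 ± 3.24 CPM with vehicle (SD, n = 3 each). RAB26, a GTPase of secretory vesicles, and KIF24, a kinesin, departed upward by 2.87 ± 0.32 and 2.82 ± 0.16 log2. MPC1 also departed upward, by 1.16 ± 0.15 log2, whereas HSPA5, although above both compounds, departed downward, by -1.56 ± 0.040 log2. HSPA5 does not stand for its list, since 16 of 25 ER genes departed upward (30.8% of all genes) and 7 downward (30% of all genes).

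The last comparison asks whether PANC1 and BXPC3 respond alike to the combination, in a model of all 24 libraries and 13930 genes with the change in PANC1 minus that in BXPC3 as the tested value. In this model 4410 changes were higher in PANC1 (31.7%) and 4207 lower (30.2%), so 61.9% differed. Of 8084 genes called in both lines 6113 moved the same way (75.6%), 2968 up and 3145 down. The other 1971 moved in opposite directions with a called difference, 860 of them up in PANC1 and 1111 down. Across the genes the changes in the lines, which share no library, correlated with a Pearson r of 0.418 and a Spearman rho of 0.451, as a description over genes that are not independent. Genes with counts in a single line are included, such as SMAD4 with 0 counts in the BXPC3 combination and vehicle libraries. Their change in the other line is fitted as no change, which enters the correlation and the share that differed. Medians of lists are those of the PANC1 model for PANC1 and of the model of 24 libraries for BXPC3. The ATF4 list had medians of 1.89 log2 in PANC1 and 1.98 log2 in BXPC3, with 17 members above and 17 below.

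**Figure D5:**
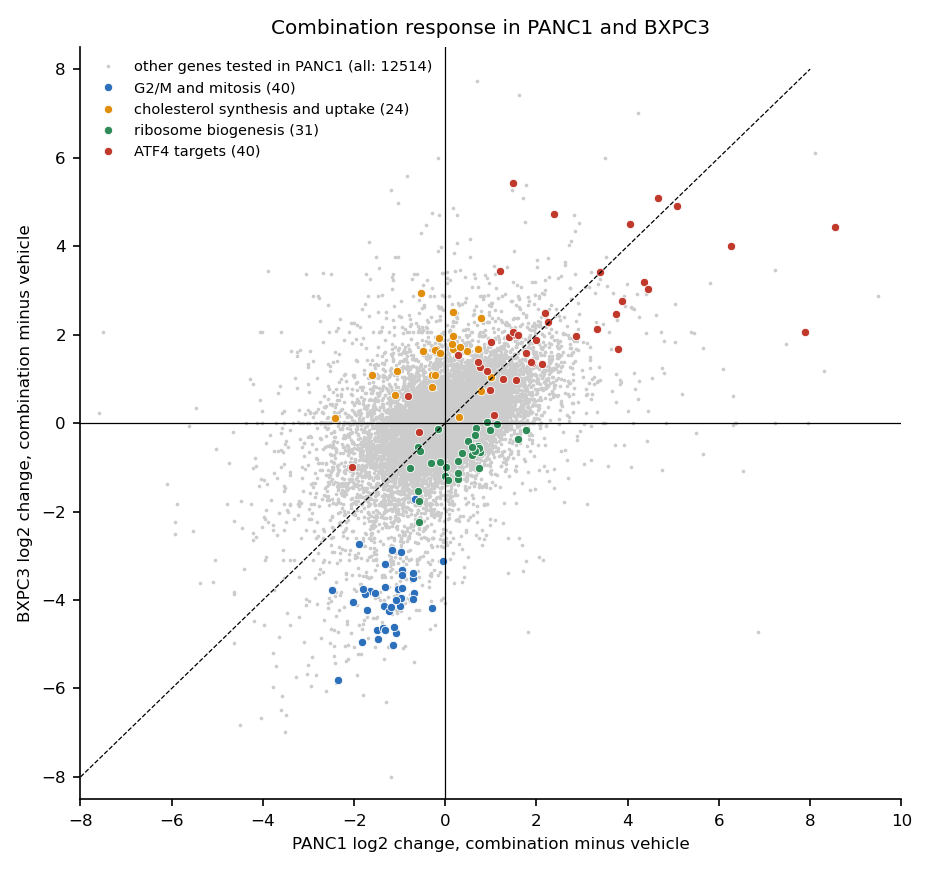
Log2 change, combination over vehicle, in PANC1 (horizontal axis) against that in BXPC3 (vertical axis), with all genes in grey, 4 gene lists in colour and equal change as a dashed line. Mitotic genes lie to the right of and below the dashed line, with a median of -1.15 log2 in PANC1 and -3.95 log2 in BXPC3, ribosome biogenesis genes lie below it, most sterol genes above it, and ATF4 targets along it on both sides.

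Cell cycle genes fell less in PANC1. The replication list had a median of -1.23 log2 in PANC1 and -3.04 log2 in BXPC3, with the change of 42 of 43 genes above that in BXPC3, and the mitotic list -1.15 log2 in PANC1 and -3.95 log2 in BXPC3, with all 40 above. Sterol genes were lower in PANC1, at a median of -0.13 log2 against 1.63 log2 in BXPC3, with 21 of 24 below and 0 above. HMGCS1, which starts sterol synthesis, changed by -0.20 log2 in PANC1 and 1.93 log2 in BXPC3, a difference of -2.13 ± 0.057 log2 (adjusted p = 2.25e-28). The ER list had a median of 1.28 log2 in PANC1 and 0.53 log2 in BXPC3, with 18 of 25 above and 4 below. Ribosome biogenesis genes had medians of 0.37 log2 in PANC1 and -0.66 log2 in BXPC3, with 28 of 31 above and 0 below.

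NGFR moved in opposite directions in the lines. With CPM scaled over all 24 libraries, it stood at 66.5 to 69.8 CPM in PANC1 combination libraries and 0.719 to 0.761 CPM in PANC1 vehicle libraries, against 23.5 to 26.7 CPM in BXPC3 combination libraries and 47.7 to 55.9 CPM in BXPC3 vehicle libraries. The difference between the lines was 7.56 ± 0.24 log2 (adjusted p = 6.33e-26). CCND2 went the same way, with 590 combination and 4 vehicle counts in PANC1 against 30 combination and 994 vehicle counts in BXPC3, a difference of 11.53 ± 0.33 log2. With so few PANC1 vehicle counts the size of this difference is more uncertain than its SE. NLRP1, KRT17, MAL2 and HCLS1 were the other genes most above BXPC3, with 0 to 2 vehicle counts in PANC1, so the size of their differences is uncertain. On the other side BMF, a BH3 protein that promotes death, stood at 0.906 to 1.74 CPM in PANC1 combination libraries and 17.4 to 19.2 CPM in PANC1 vehicle libraries, against 48.6 to 49.3 CPM in BXPC3 combination libraries and 3.99 to 5.32 CPM in BXPC3 vehicle libraries, a difference of -7.38 ± 0.22 log2. Combination and vehicle libraries did not overlap in either line. ELF3 and PGF, a relative of VEGFA, also fell in PANC1 and rose in BXPC3, with differences of -5.85 ± 0.23 and -5.63 ± 0.35 log2. The value for PGF rests on 26 counts in the PANC1 combination libraries and was -6.52 log2 without the second of them. OSCAR, PRDM16 and CAPN12 had 8, 2 and 4 vehicle counts in BXPC3, so their differences are uncertain in size.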

How the data were processed

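The authors deposited 1 table of gene counts per line, each with 25168 genes and 12 libraries. GRCh38, hg38, Partek, DESeq2 and STAR 2.7.8a appear in the submitters' processing notes, with no role given. KAPA mRNA Hyper Prep libraries were made from RNA purified with RNeasy, per the labels' protocols. The sources used here do not name the counter, the annotation or the strand setting. Counts were tested in edgeR 4.0.16 under R 4.3.3 (TMM, filterByExpr with a minimum count of 10, glmQLFTest), with 4 PANC1 groups (8 residual degrees of freedom) and, between lines, 8 groups (16). The SE is the log2 change over the square root of F. For genes with few counts in 1 group it is too small. The PANC1 minus BXPC3 difference of KRT17, with an SE of 0.44 log2, moved by 2.84 log2 when 1 library was left out. The biological coefficient of variation was 3.79%. In BXPC3 the number of 1 SR4 column differs from its title, and it was kept without a number.

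Members and gene lists were chosen with earlier results of these data known. Named were the 12 largest rises and falls (mean log2 CPM of at least 2, groups apart), up to 4 members per list by adjusted p, a panel of genes, and 6 genes per direction in the other comparisons. Other genes named beside a list were chosen after their values were seen. A few genes named by the rule are not reported here, but stay in all counts. Alternatives included the size factors and the test of DESeq2 1.42.0, no filter on low counts, a block for the replicate number, fits restricted to the compared groups, counts thinned to 1 depth, and leaving out each library. On simulated data for the combination against vehicle 12384 genes were tested. There 93 of 100 planted changes of 0.5 log2 and 100 of 100 of 1 log2 were recovered, with 9 false calls. At 0.5 log2 the departure recovered 79 of 100 and PANC1 minus BXPC3 68 of 100. The comparison with lonidamine gave 19 false calls. Only planted genes with sufficient counts changed in the simulations, whereas most genes changed in these data, so recovery in that setting was not tested. RefSeq was matched by symbol for 24409 rows.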

Additional observations from a re-analysis of the deposited data

Results flagged for a closer look

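The combination response of 36 genes named here went in opposite directions in the lines, with both changes and the difference between them called in the model of 24 libraries and at least 10 counts in each of the 4 groups. They are not a sample of all genes, since several were named for this difference. Among all genes 1971 of the 8084 called in both lines moved in opposite directions. CCND2, KRT17, EGLN3 and CAPN12 did so too with fewer counts in 1 group, and are not described further in this section. Values in this model lie slightly below those of the PANC1 model given above.

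Of the 36, 10 rose in PANC1 and fell in BXPC3. NGFR, the neurotrophin receptor, differed by 7.56 log2 (6.49 in PANC1, -1.08 in BXPC3). The YAP targets ANKRD1, CTGF and CYR61 differed by 5.04, 4.40 and 3.47 log2, at 1.22 to 2.01 in PANC1 and -3.03 to -2.26 in BXPC3. The small heat shock gene HSPB8 differed by 3.07 log2 (1.25 in PANC1, -1.82 in BXPC3). ORC6 and RFC4, the replication genes that rose in PANC1, differed by 2.85 and 1.46 log2. POLR1B and RRP12, of ribosome biogenesis, differed by 1.90 and 1.88 log2, with changes in BXPC3 of -0.35 and -0.16 log2. The ER chaperone CALR differed by 1.01 log2 (0.21 in PANC1, -0.80 in BXPC3).

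The other 26 fell in PANC1 and rose in BXPC3. The death gene BMF differed by -7.38 log2 (-3.93 in PANC1, 3.45 in BXPC3). The epithelial factor ELF3 differed by -5.85 log2 (-5.50 in PANC1, 0.34 in BXPC3). The growth factor PGF differed by -5.63 log2 (-2.82 in PANC1, 2.82 in BXPC3), but it rests on 26 counts in the PANC1 combination libraries, and its difference was -6.52 log2 without the second of them. PXDN and MDGA1 differed by -5.30 and -5.14 log2, and the scaffold AHNAK by -3.83 log2 (-2.43 in PANC1, 1.40 in BXPC3). The collagens COL1A1 and COL5A1 differed by -3.30 and -2.10 log2, and VIM, the mesenchymal filament, by -1.67 log2 (-0.64 in PANC1, 1.03 in BXPC3). NDRG1, a hypoxia target, differed by -5.09 log2 (-0.34 in PANC1, 4.75 in BXPC3) and ANGPTL4 by -3.44 log2 (-2.01 in PANC1, 1.43 in BXPC3). Of the sterol and fatty acid genes, INSIG1 differed by -3.52, SCD by -2.57, FASN by -2.23, HMGCS1 by -2.13, ACLY by -2.0003, EBP by -1.79 and ACACA by -1.35 log2, at -1.37 to -0.20 in PANC1 and 0.25 to 2.93 in BXPC3. The lactate exporter SLC16A3 differed by -3.05 log2 (-2.42 in PANC1, 0.63 in BXPC3), and PGD and TKT, of the pentose phosphate pathway, by -1.499 and -1.26 log2. The amino acid transporter SLC7A5 differed by -1.48 log2 (-0.87 in PANC1, 0.60 in BXPC3). The metallothioneins MT1E and MT2A differed by -2.50 and -1.90 log2, and FOS by -2.53 log2 (-1.52 in PANC1, 1.02 in BXPC3). CDKN1A, which encodes p21, differed by -2.58 log2 (-0.16 in PANC1, 2.42 in BXPC3), and its PANC1 change was not called in the model of PANC1 alone.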

How the results depend on the processing

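The counts of genes called in the 5 comparisons stayed within 1.5 times their values under every alternative run (142 of 142). No scaling moved the median of all genes by more than 0.1 log2. TMM and the size factors of DESeq2 both centre the bulk of genes near no change, so this median does not test the scaling. The split between lines, 4410 higher and 4207 lower, moved more than the others. Leaving out 1 library gave 4258 to 4804 higher and 3671 to 4085 lower, and fitting only the compared groups gave 4898 higher and 3835 lower. For the combination against vehicle, leaving out 1 library at a time gave 4891 to 4958 rises and 4972 to 5027 falls, and DESeq2 gave 4924 rises and 4855 falls. Same-numbered combination and vehicle libraries had deviations that correlated at 0.110, 0.027 and -0.001, so the numbers were not taken to pair them, and with the replicate number as a block 5007 genes rose and 5097 fell. Of the single values, CDKN1A gained a call without the third vehicle library (adjusted p = 0.0491), and NDRG1 lost it as given above. Without the filter 1 gene of the ER list fell. The cause was not tested. Folds of genes with few counts moved most, with MFSD2A at 6.95 log2 and BEX4 at 7.29 log2 without the first vehicle library, ADAMTS15 at -6.50 log2 without the first combination library, and, between lines, PGF at -6.52 log2 without the second PANC1 combination library. The difference of KRT17 was 9.12 log2 without the third PANC1 vehicle library, against 6.29 log2 with it. That of PRDM16 was -8.70 log2 without the first BXPC3 vehicle library, against -6.18 log2 with it. KRT17 had 2 counts over the PANC1 vehicle libraries and PRDM16 had 2 over the BXPC3 vehicle libraries, so the size of both differences is uncertain. Below 0.338 CPM a gene cannot be told from absence at this depth.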

Other observations

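The genes given here are among those that lost or gained the most CPM, read from the ranking of genes by change in CPM after the values were seen. ACTB, cytoplasmic actin, stood at 2445 ± 44.8 CPM with the combination and 5329 ± 41.6 CPM with vehicle (SD, n = 3 each), a fall of 1.12 ± 0.033 log2. ACTN4, which cross-links actin, fell by 1.22 ± 0.030 log2 to 1353 ± 21.98 CPM, and TUBB, a tubulin that has many pseudogenes, by 1.67 ± 0.038 log2 to 699 ± 0.755 CPM. AKAP12, a scaffold of protein kinase A, fell by 1.31 ± 0.042 log2. The largest loss was that of AHNAK, a very large scaffold protein, with 1219, 809 and 858 CPM in the combination libraries and 5647, 4593 and 4808 CPM in the vehicle libraries. Its groups did not overlap, but the spread within them was wide for a gene of this level. EIF4G2, a translation factor, fell by 0.94 ± 0.029 log2. Beside HSPA5, ferritin and SQSTM1, large gains were those of SUPT5H, a transcription elongation factor, by 0.92 ± 0.028 log2 and ERRFI1, a feedback inhibitor of EGFR, by 1.71 ± 0.032 log2.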
